A study of Mus musculus with 20 samples.

Results

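Genes that mark or equip regulatory T cells, 10 in all, were followed through 20 RNA-seq libraries of mouse pancreatic tumours: Foxp3, Ikzf2, Il2ra, Il10, Ctla4, Icos, Tnfrsf4, Tnfrsf18, Tnfrsf9 and Ccr8. They were taken by gene symbol and not by a cut on their values, but earlier results of these data were known when they were chosen. They are 10 of the 46983 genes in the count table. All 10 passed the filter on low counts in every comparison. The tumours grew from cultured KPC cells, a murine pancreatic cancer line, placed in the pancreas of C57BL/6 hosts and taken at 2 weeks from mice that received no treatment. Hosts were either wild type (WT) or IL33-/-, written here as labelled IL33KO. From each genotype there were 5 libraries of leukocytes sorted on CD45 magnetic beads ("sorted") and 5 libraries of whole tumour ("bulk"). The labels name 5 hosts per genotype but tie no library to a mouse, so p-values measure the spread between libraries, which may be partly technical. Nor do they say whether sorted and bulk libraries share tumours, what part of Il33 is deleted, or how old the mice were. The KPC cells themselves were the same in both hosts and were not labelled as lacking Il33.

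Regulatory T cells are CD4 T cells that restrain other lymphocytes, and they gather in many solid tumours. The transcription factor Foxp3 sets their programme, with Helios (Ikzf2) as a frequent partner. They take up IL-2 through its high-affinity receptor chain CD25 (Il2ra), strip or block B7 ligands with CTLA-4, and can release IL-10. In tumours they commonly carry ICOS, the TNF receptor family members OX40 (Tnfrsf4), GITR (Tnfrsf18) and 4-1BB (Tnfrsf9), and the chemokine receptor CCR8. IL-33 is an alarmin that signals through ST2 (Il1rl1), a receptor that some regulatory T cells and group 2 innate lymphoid cells display. Apart from Foxp3, none of the genes is restricted to regulatory T cells: activated conventional T cells, natural killer cells, macrophages or dendritic cells also use several of them.

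Libraries held 51273100 to 80957400 gene counts, to 6 digits. A count of 3 corresponded to 0.0331 to 0.0676 CPM, the count scaled to a common library size. The sort was checked with 10 genes shared by all leukocytes, among them Ptprc, which encodes CD45. Their summed level was 9041 to 12002 CPM in sorted and 695 to 1646 CPM in bulk libraries. The 16 T cell genes checked summed to 803 to 2009 CPM in sorted and 125 to 390 CPM in bulk libraries, and none of them was at 0 throughout. Tumour epithelial genes remained in the sorted libraries, at 1050 to 2802 CPM for 8 genes against 6598 to 9517 CPM in bulk. Some libraries stood apart. Sorted IL33KO 3 held 43872 CPM of 8 pancreatic acinar genes, against at most 7411 CPM in the other sorted libraries. It also held 15622 CPM of 6 neutrophil genes, against at most 6164 CPM in the others, and the lowest sorted T cell sum, 803 CPM. Sorted WT 3 and bulk IL33KO 1 held few unaligned reads. Bulk WT 5 held 9129 CPM of the acinar genes, against 38.6 to 42.3 CPM in the other bulk WT libraries. Il33 itself was counted in every library labelled IL33KO, at 14.2 to 25.3 CPM in sorted and 38.0 to 56.2 CPM in bulk, against 5.71 to 20.7 and 54.0 to 66.9 CPM in WT. Counts per gene do not show which exons were read, so they do not check the genotype.

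The promoters of the members are shown because 2 pairs of them lie side by side in the genome, and their levels are compared further on. RefSeq (GRCm38.p6) promoters were matched by symbol for 7 of the 10 genes; Ikzf2, Il10 and Icos had no entry. Each line gives the 250 bases before a transcription start, 5′ to 3′. Capitals mark the letters GGAAA, the core bound by NFAT factors, on either strand, so that the opposite strand reads TTTCC. These are the promoter of Foxp3 at the first of its 2 listed starts, that of Ctla4, and those of the neighbours Tnfrsf4 and Tnfrsf18.
Foxp3, chrX:7579426-7579675, + strand: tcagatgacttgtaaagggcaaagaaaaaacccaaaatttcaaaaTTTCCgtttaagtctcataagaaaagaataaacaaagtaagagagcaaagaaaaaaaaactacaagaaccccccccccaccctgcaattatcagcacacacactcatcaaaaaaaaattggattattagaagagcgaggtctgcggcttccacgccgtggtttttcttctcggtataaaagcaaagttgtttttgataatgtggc
Ctla4, chr1:60908775-60909024, + strand: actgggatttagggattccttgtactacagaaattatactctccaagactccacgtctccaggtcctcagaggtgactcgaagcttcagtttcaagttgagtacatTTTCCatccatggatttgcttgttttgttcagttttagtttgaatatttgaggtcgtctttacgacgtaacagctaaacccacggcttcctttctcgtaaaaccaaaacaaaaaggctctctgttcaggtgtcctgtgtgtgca
Tnfrsf4, chr4:156013445-156013694, + strand: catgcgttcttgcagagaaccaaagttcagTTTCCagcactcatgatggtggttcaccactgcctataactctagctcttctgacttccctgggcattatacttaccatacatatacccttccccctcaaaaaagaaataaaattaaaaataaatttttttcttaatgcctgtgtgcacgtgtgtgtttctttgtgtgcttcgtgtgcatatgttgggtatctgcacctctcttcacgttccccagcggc
Tnfrsf18, chr4:156026072-156026321, + strand: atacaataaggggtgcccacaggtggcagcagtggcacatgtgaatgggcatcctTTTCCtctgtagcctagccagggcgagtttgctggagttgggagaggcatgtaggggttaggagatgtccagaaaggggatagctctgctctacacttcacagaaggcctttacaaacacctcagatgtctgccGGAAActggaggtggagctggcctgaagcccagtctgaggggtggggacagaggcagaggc
Each of these 4 held GGAAA at least once, and Tnfrsf18 held it 2 times, where 55.6% of all 32851 promoters in the table held it. Of the 7 members with a promoter 6 held GGAAA, all but Ccr8. The NF-kB pattern searched lay in none of the 4 printed but in those of Il2ra, Ccr8 and the second start of Tnfrsf9, so in 3 of the 7 members, and 17.6% of all promoters held one. In Tnfrsf18 one GGAAA shares letters with CCGGAA, an ETS pattern held by 12% of promoters. The Foxp3 window held TATAAA, the TATA box, which 12.4% held. The STAT5 pattern lay in Tnfrsf18 and at the second starts of Tnfrsf9 and Foxp3 (7.02% of promoters), and the AP-1 pattern at the second start of Tnfrsf9 (6.75%). The RUNX (14%) and forkhead (3.17%) patterns, the last of 8 searched, lay in none of the 7 members. Members were counted at any of their listed starts, while the percentages count single promoters, so the shares are not like for like. These matches describe the letters only.

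The 10 genes were far higher in sorted leukocytes than in bulk tumour, with the exception of Ikzf2, and no genotype difference passed the main test. By edgeR's quasi-likelihood test, none of the 10 was called between genotypes in sorted leukocytes, where 0.012% of 16731 genes were called, nor in bulk tumour, where 0% of 17258 were called. Between sorted leukocytes and bulk tumour of WT hosts, 9 of the 10 were higher in the sort, where 33.7% of 18145 genes were. In hosts labelled IL33KO all 10 were higher, where 31.3% of genes were. Ikzf2 was the exception in WT. The threshold throughout was an adjusted p of 0.05 over all genes tested.

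**Figure D1:**
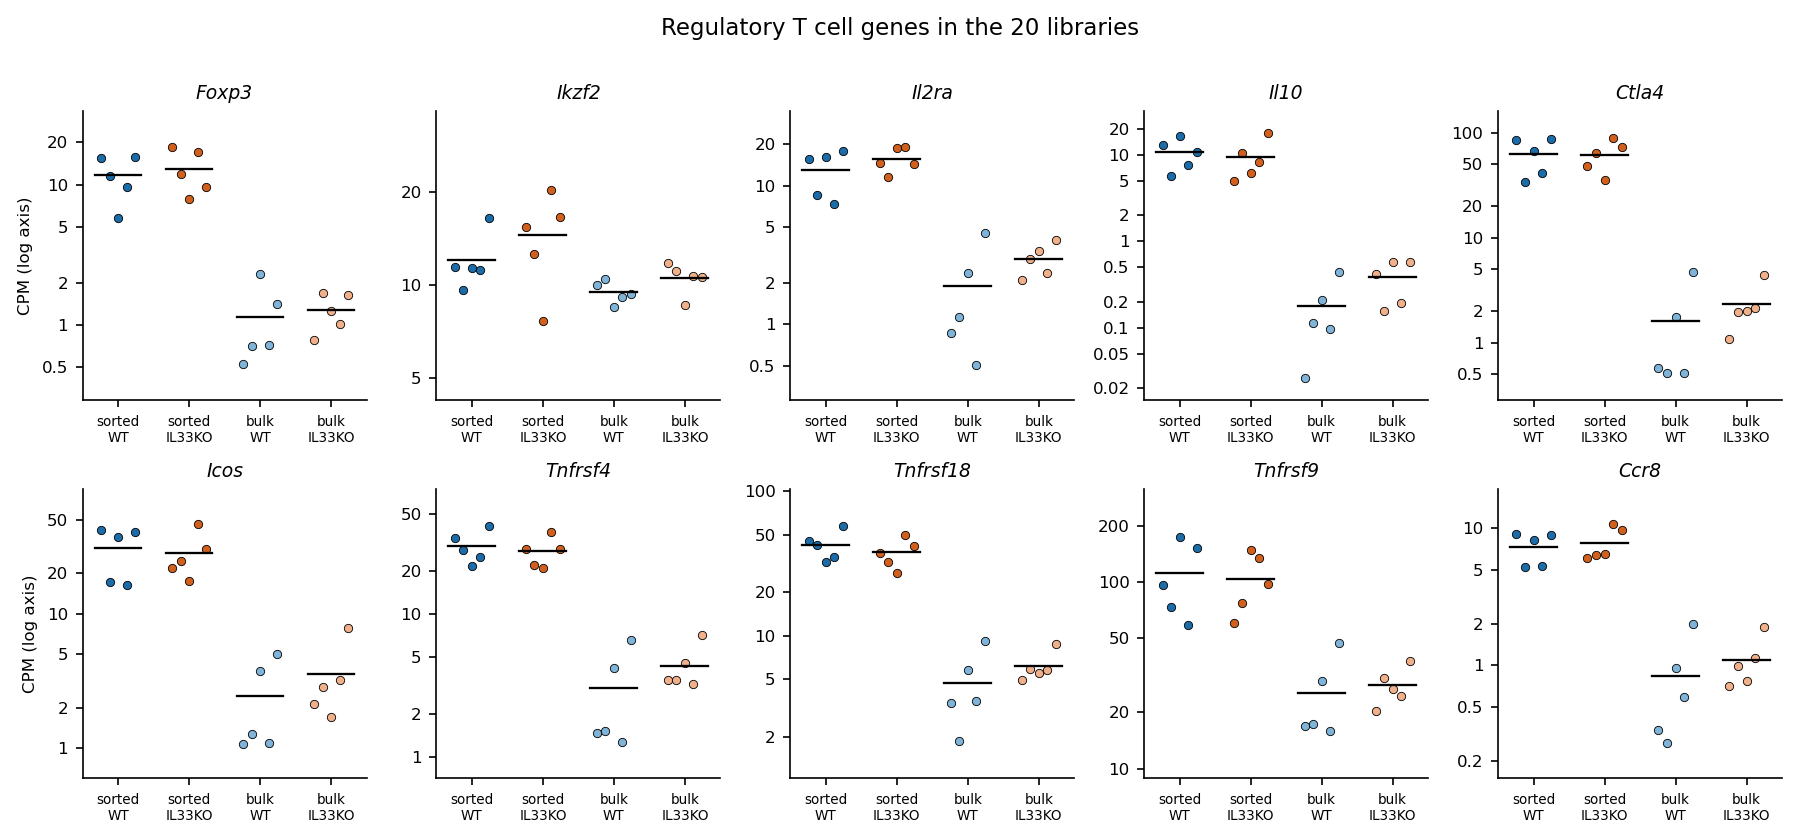
CPM of the 10 genes (log axis) in each of the 20 libraries; points are libraries in replicate order from left to right within a group, and bars are group means of 5. Sorted libraries lie above all bulk libraries for every gene except Ikzf2, and sorted WT and sorted IL33KO overlap for all 10.

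Levels of different genes were compared per kilobase of merged exon (RPKM, the scaled count divided by exon length). Tnfrsf9 was highest of the 10 in all 4 groups, at 40.9 ± 18.4 RPKM (SD, n = 5) in sorted WT and 38.2 ± 13.8 in sorted IL33KO. Tnfrsf18 (27.9 ± 6.401 RPKM in sorted WT), Ctla4 (26.9 ± 10.4) and Tnfrsf4 (21.9 ± 5.67) followed close together. Their order changed between libraries: each neighbouring step from Tnfrsf9 down to Tnfrsf4 held in 3 of 5 sorted WT libraries. Icos (8.95 ± 3.71 RPKM in sorted WT), Il10 (8.28 ± 3.35) and Ccr8 (6.24 ± 1.62) formed a middle tier, with Icos below Tnfrsf4 in 5 of 5 libraries and neighbours inside the tier less settled. Foxp3 (2.54 ± 0.913 RPKM), Il2ra (2.29 ± 0.826) and Ikzf2 (1.04 ± 0.225) were lowest, each step into and within this tier holding in 4 or 5 of 5 sorted WT libraries. Sorted IL33KO gave the same 3 tiers, with Ctla4 ahead of Tnfrsf18 in 3 of 5 libraries. In bulk WT tumour Ikzf2 moved up to the fourth place, at 0.818 ± 0.067 RPKM, and Il10 was last, at 0.136 ± 0.125.

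Foxp3 (ENSMUSG00000039521.12, chromosome X, 7573644 to 7595245, plus strand), the lineage factor, was counted in every library, at low levels in bulk tumour. In sorted leukocytes it stood at 15.6, 11.5, 5.79, 9.65 and 15.6 CPM in WT 1 to 5, and at 18.6, 11.8, 7.85, 17.0 and 9.68 CPM in IL33KO 1 to 5. In bulk tumour the values were 0.522, 0.708, 2.30, 0.720 and 1.41 CPM in WT and 0.773, 1.69, 1.26, 1.02 and 1.63 CPM in IL33KO, from 40 to 177 counts. The lowest sorted values were those of the 2 libraries numbered 3, and the genotypes overlapped in both compartments. IL33KO differed from WT by log2 +0.16 (SE 0.31, edgeR adjusted p = 0.866) in sorted leukocytes, with a 95% confidence interval from −0.52 to +0.84. In bulk it was +0.16 (SE 0.42, edgeR adjusted p = 0.901). Without sorted WT 3 the sorted difference was −0.02, so its sign rested on that library. Foxp3 was 10.4-fold higher in sorted leukocytes than in bulk tumour in both genotypes (log2 +3.37, SE 0.38, edgeR adjusted p = 6.36e-07 in WT and 8.72e-07 in IL33KO). Its exons share 853 bases with Flicr on the same strand and 590 bases with Ccdc22 on the opposite one; the strand setting of the counting is not given, so the split of these reads is uncertain.

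Ikzf2 (ENSMUSG00000025997.13, chromosome 1, 69531214 to 69687245, minus strand), encoding Helios, had the smallest difference between compartments of the 10. In sorted leukocytes it stood at 11.4, 9.64, 11.4, 11.2 and 16.5 CPM in WT, and at 15.4, 12.6, 7.62, 20.3 and 16.6 CPM in IL33KO. Its bulk tumour values were 10.01, 10.5, 8.49, 9.16 and 9.35 CPM in WT, and at 11.8, 11.1, 8.62, 10.7 and 10.6 CPM in IL33KO. In WT, bulk libraries 3, 4 and 5 lay below every sorted library and the other 2 among them. In IL33KO the ranges overlapped through sorted IL33KO 3, the library rich in acinar and neutrophil genes and lowest of the sorted libraries in T cell genes. Sorted WT 5 lay apart from the other WT libraries. Sorted exceeded bulk by log2 +0.36 in WT (SE 0.19, edgeR adjusted p = 0.106, not called) and by +0.49 in IL33KO (SE 0.19, edgeR adjusted p = 0.0325). The IL33KO call was lost without any one of 5 libraries: it was 0.0598, 0.127 and 0.0786 as edgeR adjusted p without sorted IL33KO 1, 4 and 5, and 0.0777 and 0.0539 without bulk IL33KO 3 and 4. The WT difference was called without sorted IL33KO 3, still at +0.36, with an edgeR adjusted p of 0.0347. That library is in neither group of the WT comparison and enters it only through the shared scaling and estimate of spread. Genotypes differed by log2 +0.28 (SE 0.24, edgeR adjusted p = 0.662) in sorted leukocytes and +0.13 (SE 0.11, edgeR adjusted p = 0.743) in bulk tumour. In bulk material, fewer cells of a type and less RNA per cell cannot be told apart.

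Il2ra (ENSMUSG00000026770.5, chromosome 2, 11642807 to 11693193, plus strand) encodes the IL-2 receptor alpha chain. It ranged from 7.43 to 17.8 CPM in sorted WT and from 11.5 to 19.1 CPM in sorted IL33KO, and from 0.513 to 4.53 CPM in bulk WT and 2.10 to 4.05 CPM in bulk IL33KO. Sorted values were 6.96-fold higher than bulk in WT (log2 +2.80, SE 0.42, edgeR adjusted p = 2.03e-05) and 5.36-fold higher in IL33KO (log2 +2.42, SE 0.42, edgeR adjusted p = 0.000101). The 3 lowest bulk libraries were all WT, and the highest bulk library, WT 5, was WT as well. The bulk genotype difference was log2 +0.64 (SE 0.52, edgeR adjusted p = 0.739), and the sorted one +0.28 (SE 0.25, edgeR adjusted p = 0.691).

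Il10 (ENSMUSG00000016529.5, chromosome 1, 131019845 to 131024974, plus strand), the suppressive cytokine gene, showed the largest fold between compartments in WT and the second largest, after Ctla4, in IL33KO. In sorted leukocytes it stood at 13.0, 5.68, 16.8, 7.71 and 10.99 CPM in WT, and at 4.98, 10.6, 6.22, 8.33 and 17.9 CPM in IL33KO. In bulk tumour it was close to the detection limit, at 0.0261, 0.113, 0.208, 0.097 and 0.448 CPM in WT and 0.420, 0.155, 0.577, 0.193 and 0.578 CPM in IL33KO. The bulk values came from 2 to 35 counts in WT and 11 to 42 in IL33KO, so counting error alone is large there. Sorted leukocytes exceeded bulk tumour by log2 +5.91 in WT (SE 0.54, edgeR adjusted p = 8.93e-08) and by +4.66 in IL33KO (SE 0.51, edgeR adjusted p = 1.07e-06). The bulk genotype difference, log2 +1.08 (SE 0.64, edgeR adjusted p = 0.724), was the largest of the 10 and its 95% interval ran from −0.32 to +2.48. In sorted leukocytes the difference was −0.15 (SE 0.37, edgeR adjusted p = 0.899).

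Ctla4 (ENSMUSG00000026011.13, chromosome 1, 60887000 to 60915832, plus strand), the inhibitory receptor gene, stood at 84.6, 33.7, 67.5, 41.5 and 86.3 CPM in sorted WT, and at 48.5, 63.7, 35.1, 89.1 and 73.4 CPM in sorted IL33KO. Bulk tumour values were 0.574, 0.510, 1.74, 0.513 and 4.71 CPM in WT, and at 1.09, 1.97, 2.00, 2.12 and 4.41 CPM in IL33KO. In bulk WT the libraries numbered 3 and 5 were high and the other 3 were within 0.510 to 0.574 CPM; all 5 IL33KO libraries exceeded those 3. Sorted leukocytes exceeded bulk tumour 38.9-fold in WT (log2 +5.28, SE 0.54, edgeR adjusted p = 6.76e-07) and 27.2-fold in IL33KO (log2 +4.76, SE 0.53, edgeR adjusted p = 2.34e-06). Genotypes differed by log2 −0.01 (SE 0.31, edgeR adjusted p = 0.996) in sorted leukocytes and +0.50 (SE 0.66, edgeR adjusted p = 0.801) in bulk tumour.

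Icos (ENSMUSG00000026009.14, chromosome 1, 60977927 to 61000320, plus strand), the costimulatory receptor gene next to Ctla4, stood at 42.1, 17.4, 37.1, 16.4 and 40.5 CPM in sorted WT, and at 22.0, 24.9, 17.7, 47.1 and 30.6 CPM in sorted IL33KO. The bulk libraries held 1.07, 1.27, 3.78, 1.08 and 4.98 CPM in WT, and at 2.14, 2.85, 1.70, 3.19 and 7.86 CPM in IL33KO. The same bulk WT libraries, 3 and 5, were high, and bulk IL33KO 5 lay above all other bulk libraries. Sorted leukocytes exceeded bulk tumour 12.6-fold in WT (log2 +3.66, SE 0.48, edgeR adjusted p = 6.27e-06) and 8.14-fold in IL33KO (log2 +3.03, SE 0.48, edgeR adjusted p = 5.00e-05). The genotype difference was log2 −0.10 (SE 0.33, edgeR adjusted p = 0.933) in sorted leukocytes. The bulk value was +0.52 (SE 0.55, edgeR adjusted p = 0.770) and −0.01 without bulk IL33KO 5.

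Tnfrsf4 (ENSMUSG00000029075.6, chromosome 4, 156013843 to 156016612, plus strand) encodes OX40. In sorted leukocytes it stood at 33.7, 27.9, 21.6, 24.8 and 41.2 CPM in WT and at 28.4, 21.8, 20.8, 37.5 and 28.6 CPM in IL33KO, and in bulk tumour at 1.47, 1.52, 4.21, 1.27 and 6.58 CPM in WT and 3.45, 3.44, 4.50, 3.22 and 7.15 CPM in IL33KO. Sorted leukocytes exceeded bulk tumour by log2 +3.32 in WT (SE 0.38, edgeR adjusted p = 1.03e-06) and +2.68 in IL33KO (SE 0.38, edgeR adjusted p = 1.28e-05). In bulk tumour the 3 lowest libraries were WT 1, 2 and 4, while WT 5 and IL33KO 5 were the 2 highest. The genotype difference was log2 −0.11 (SE 0.21, edgeR adjusted p = 0.858) in sorted leukocytes and +0.52 (SE 0.48, edgeR adjusted p = 0.751) in bulk tumour.

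Tnfrsf18 (ENSMUSG00000041954.18, chromosome 4, 156026164 to 156028895, plus strand) encodes GITR. In sorted leukocytes it stood at 45.5, 42.5, 32.1, 35.2 and 57.0 CPM in WT and at 37.0, 32.4, 27.3, 49.5 and 41.7 CPM in IL33KO, and in bulk tumour at 3.46, 1.87, 5.76, 3.56 and 9.16 CPM in WT and 4.98, 5.86, 5.58, 5.83 and 8.83 CPM in IL33KO. In sorted libraries the order followed Tnfrsf4 closely. Sorted leukocytes exceeded bulk tumour by log2 +3.17 in WT (SE 0.30, edgeR adjusted p = 8.19e-08) and +2.62 in IL33KO (SE 0.30, edgeR adjusted p = 9.88e-07). The genotype difference was log2 −0.17 (SE 0.19, edgeR adjusted p = 0.758) in sorted leukocytes, with a 95% interval from −0.58 to +0.25, the narrowest of the 10 there. The bulk value was +0.37 (SE 0.37, edgeR adjusted p = 0.761). Exons of Tnfrsf18 share 414 bases with the antisense gene Gm16008, so those reads are uncertain.

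Tnfrsf9 (ENSMUSG00000028965.13, chromosome 4, 150914562 to 150946102, plus strand), encoding 4-1BB, stood at 96.1, 73.9, 175, 59.2 and 152 CPM in sorted WT, and at 60.4, 77.5, 149, 134 and 97.8 CPM in sorted IL33KO. Its bulk tumour values were 16.9, 17.4, 29.5, 16.0 and 47.1 CPM in WT, and at 20.4, 30.6, 26.7, 24.6 and 37.7 CPM in IL33KO. Sorted WT 3 and sorted IL33KO 3 were the highest of their groups for Tnfrsf9, whereas they were the lowest for Foxp3. The step from bulk to sorted, 4.40-fold in WT (log2 +2.14, SE 0.34, edgeR adjusted p = 2.84e-05) and 3.77-fold in IL33KO (log2 +1.92, SE 0.34, edgeR adjusted p = 0.000107), was the smallest of the 10 apart from Ikzf2. Genotypes differed by log2 −0.08 (SE 0.33, edgeR adjusted p = 0.946) in sorted leukocytes and +0.12 (SE 0.31, edgeR adjusted p = 0.893) in bulk tumour. Mature dendritic cells also make Tnfrsf9 and Tnfrsf4; 10 marker genes of that type, which include both, summed to 382 to 616 CPM in sorted and 186 to 339 CPM in bulk libraries, and their part in these levels was not tested.

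Ccr8 (ENSMUSG00000042262.4, chromosome 9, 120092114 to 120094906, plus strand), the chemokine receptor gene, ranged from 5.23 to 9.03 CPM in sorted WT and from 6.06 to 10.7 CPM in sorted IL33KO. In bulk tumour it ranged from 0.269 to 2.01 CPM in WT and from 0.707 to 1.90 CPM in IL33KO, from 19 to 157 counts. Both genotypes were thus clearly apart between compartments, 8.85-fold in WT (log2 +3.15, SE 0.42, edgeR adjusted p = 5.42e-06) and 7.30-fold in IL33KO (log2 +2.87, SE 0.42, edgeR adjusted p = 1.77e-05). The genotype difference was log2 +0.12 (SE 0.23, edgeR adjusted p = 0.870) in sorted leukocytes and +0.38 (SE 0.53, edgeR adjusted p = 0.812) in bulk tumour.

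The genotype comparison asked whether hosts lacking IL-33 had other levels of regulatory T cell transcripts in their tumours. In sorted leukocytes the 10 log2 differences lay between −0.17 (Tnfrsf18) and +0.28 (Ikzf2), with 4 positive and 6 negative and a median of −0.04 against +0.02 over all genes tested. No member had an unadjusted p under 0.05 in edgeR, where 2156 of 16731 genes had one. DESeq2 called 0 of the 10, where it called 1.8% of genes, and limma voom, weighted by sample quality, called 0, where it called 2.39%. The intervals of the 10 together spanned log2 −0.97 (Il10) to +0.84 (Foxp3), and differences within each gene's own interval, such as −0.58 to +0.25 for Tnfrsf18, were not excluded. Genotypes overlapped for all 10 members, where 3.7% of genes had groups that did not overlap.

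In bulk tumour all 10 log2 differences were positive, from +0.12 (Tnfrsf9) to +1.08 (Il10), with a median of +0.44 against +0.01 over all genes, and none was called. Genotypes overlapped for all 10, where 0.672% of genes had groups that did not. No member had an unadjusted p under 0.05 in edgeR, where 1098 of 17258 genes had one. The 10 are not independent, since all were read from the same libraries. Bulk WT 3 and 5 were the 2 highest WT libraries for 9 of the 10, all but Ikzf2, for which bulk WT 3 was the lowest. The summed T cell genes in bulk WT 3 and 5 were 282 and 390 CPM against 125 to 128 CPM in the other 3. The 9 B cell genes summed to 73.5 and 48.5 CPM in those 2 libraries against 9.75 to 9.96 CPM in the other 3. In bulk IL33KO they summed to 215 CPM in library 5 and to 20.3 to 49.1 CPM in the others. Of these genes 9 of 9 had positive differences, with 0 called. Other lists lay the same way with 0 called: 10 of 10 genes shared by leukocytes (median log2 +0.26), 10 of 10 macrophage genes (+0.27), 7 of 7 natural killer cell genes (+0.71), 15 of 16 T cell genes (+0.15) and 7 of 7 fibroblast genes (+0.96) were positive. Of the acinar genes 0 of 7 were (−1.95), also with 0 called. The summed leukocyte genes were 695 to 1610 CPM in bulk WT and 859 to 1646 CPM in bulk IL33KO, and the fibroblast genes 906 to 2113 and 1239 to 4655 CPM. The part of these lists in the member differences was not tested. The sign of 3 members turned in edgeR when 1 library was left out: Foxp3 was −0.03 without bulk WT 1, Icos −0.01 without bulk IL33KO 5, and Tnfrsf9 −0.0063 and −0.0079 without bulk WT 4 and bulk IL33KO 5. Sizes moved widely too: without bulk WT 5 the difference was +1.46 for Ctla4, +1.28 for Il2ra, +1.03 for Tnfrsf4, +1.02 for Ccr8 and +1.77 for Il10. Without bulk IL33KO 5 it was +0.13 for Ctla4, +0.26 for Tnfrsf4 and +0.08 for Ccr8, and without bulk WT 4 it was +0.40 for Il2ra.

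The count in bulk tumour depended on the tool. DESeq2 called 0 of the 10, where it called 0.195% of genes. Limma voom, weighted by sample quality, called 8 of the 10 higher in the libraries labelled IL33KO, all but Foxp3 (log2 +0.86, limma adjusted p = 0.0782) and Ikzf2 (+0.11, limma adjusted p = 0.338), where it called 11.1% of genes higher. The called values ran from +0.57 for Tnfrsf9 (limma adjusted p = 0.0446) to +2.11 for Il10 (limma adjusted p = 0.0274). In that fit the weights differed widely, at 6.09, 0.594, 0.664, 2.56 and 0.2175 for bulk WT 1 to 5. For bulk IL33KO 1 to 5 they were 0.642, 1.71, 0.619, 2.27 and 0.485. Bulk WT 1 and 4, the most heavily weighted WT libraries, summed to 128 and 127 CPM of T cell genes. Bulk WT 2, 3 and 5 summed to 125, 282 and 390 CPM. The difference between the genotype effects of the 2 compartments was called for 0 of the 10 by edgeR, from −1.24 (Il10) to +0.13 (Ikzf2) in log2 units, where 0% of genes were called and 2028 of 18145 had an unadjusted p under 0.05. Limma voom called that difference for 2 of the 10, where it called 18.8% of genes, and DESeq2 for 0, where it called 0.0071%.

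**Figure D2:**
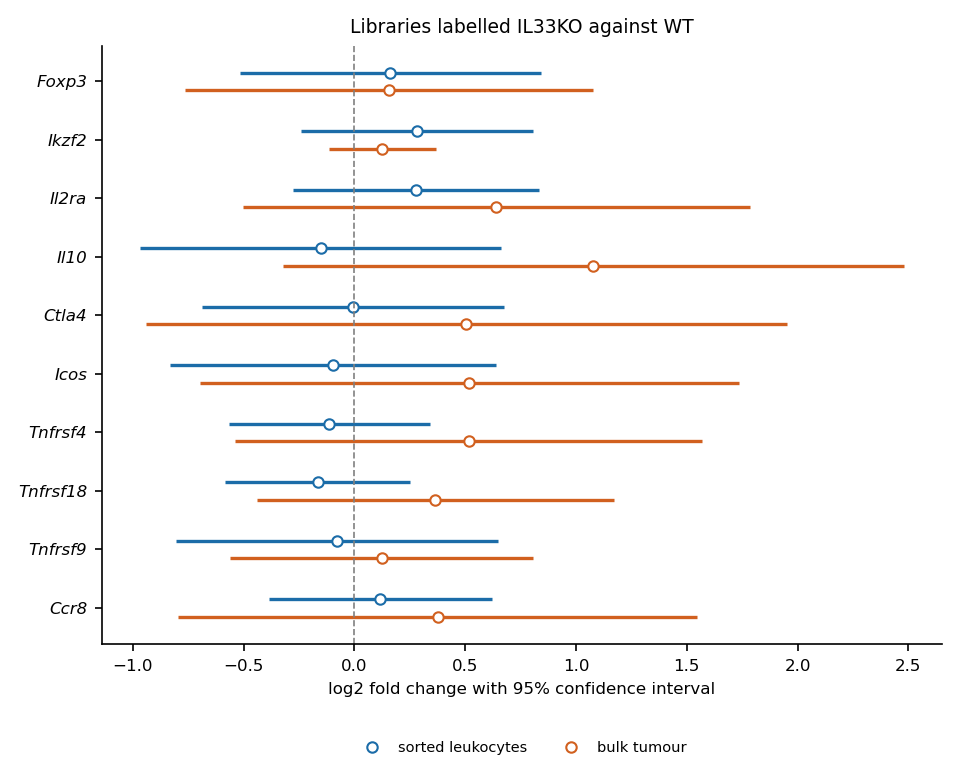
Log2 fold change of libraries labelled IL33KO against WT (horizontal axis) for each of the 10 genes in sorted leukocytes and bulk tumour; points are edgeR estimates, lines 95% confidence intervals, and open points are values that were not called. All 20 intervals cross 0, and the bulk estimates are all positive, from +0.12 to +1.08.

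Other genes of the same biology were read from 2 further lists. Of 22 genes linked to regulatory T cells, 0 of 22 were called in sorted leukocytes and 0 of 21 tested in bulk tumour by edgeR. The smallest p in sorted leukocytes belonged to Ebi3, a subunit of IL-35, at 49.9 CPM in WT and 36.3 CPM in IL33KO (log2 −0.45, SE 0.08, edgeR adjusted p = 0.144), and to Tgfb1, the TGF-beta gene (log2 −0.31, SE 0.08, edgeR adjusted p = 0.169). The WT and IL33KO libraries did not overlap for either, as for 3.7% of all genes. In the same comparison 10 of 10 macrophage genes had negative differences (median log2 −0.34), with 0 called and sums of 10181 to 12736 CPM in WT and 6023 to 9759 CPM in IL33KO, and their part in these values was not tested. In bulk tumour the smallest p was that of the opioid precursor gene Penk, at 10.5 and 18.8 CPM (log2 +0.82, SE 0.33, edgeR adjusted p = 0.724). Of 19 ligands, receptor chains and signal carriers that act with the 10 genes, 0 of 19 were called in sorted leukocytes and 0 of 17 tested in bulk tumour. The lowest p there were those of the IL-10 receptor chain Il10rb in sorted leukocytes (log2 −0.28, SE 0.09, edgeR adjusted p = 0.274) and of the CCR4 ligand Ccl17 in bulk tumour (log2 +1.04, SE 0.37, edgeR adjusted p = 0.724). The CCR8 ligand Ccl8 stood at 756 CPM in sorted WT and 505 CPM in sorted IL33KO (log2 −0.57, SE 0.21, edgeR adjusted p = 0.312). Il1rl1, the IL-33 receptor gene, stood at 10.8 ± 4.92 and 11.3 ± 5.82 CPM in sorted WT and IL33KO (SD, n = 5).

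The second comparison set sorted leukocytes against bulk tumour, and so asked which of the 10 genes followed the leukocytes. Ranked by the log2 difference in WT, Il10 (+5.91) and Ctla4 (+5.28) led, Icos, Foxp3, Tnfrsf4, Tnfrsf18, Ccr8 and Il2ra followed between +3.66 and +2.80, and Tnfrsf9 (+2.14) and Ikzf2 (+0.36) were last. The median of the 10 was +3.24 in WT and +2.77 in IL33KO, beside −0.003 and +0.02 over all genes tested. For comparison the 16 T cell genes were all called higher in both genotypes, with medians of +3.01 and +2.76, and the 10 genes shared by leukocytes had medians of +3.57 and +3.13. Sorted and bulk groups did not overlap for 9 of the 10 genes in either genotype, where 26.1% of genes in WT and 23.7% in IL33KO were higher without overlap. Of the 22 genes linked to regulatory T cells 17 were called higher in WT, where 33.7% of all genes were, and 18 in IL33KO, where 31.3% were. The smallest p in WT belonged to Entpd1, which encodes the ectonucleotidase CD39 (log2 +3.13, SE 0.19, edgeR adjusted p = 2.66e-10), and to Ebi3 (log2 +3.83, SE 0.23, edgeR adjusted p = 2.95e-10). Nt5e, encoding its partner CD73, was the 1 gene called lower and is named for that, after its values were seen, at 44.9 CPM in sorted and 153 CPM in bulk WT (log2 −1.76, SE 0.21, edgeR adjusted p = 9.17e-07). Of the 19 partner genes 18 were called higher in each genotype, and the smallest p in WT was that of the IL-10 receptor chain Il10ra (log2 +3.43, SE 0.20, edgeR adjusted p = 2.30e-10).

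To set the genes against the T cells rather than all RNA, counts were also expressed per 1000 summed counts of Cd3d, Cd3e and Cd3g, which encode the invariant chains of the T cell receptor complex. That sum was 6516 to 22750 counts in sorted and 1307 to 5222 in bulk libraries. Per Cd3 count most genes were lower in the sort: 87.2% of 18142 genes were called lower in WT and 86.8% in IL33KO, and 1.86% and 1.95% were called higher. Against that background 2 of the 10 members were called higher in both genotypes, Ctla4 and Il10, 1 was called lower in both, Ikzf2, and 7 were not called. Of the other 13 T cell genes tested, 0 were called higher in either genotype, 0 were called lower in WT and 1 in IL33KO, Thy1, named after its values were seen, which other cells also carry (log2 −1.18, SE 0.43, edgeR adjusted p = 0.00861). Among 6 neutrophil genes, 1 was called higher in WT (median log2 +1.01) and 6 in IL33KO (+2.42). Among 9 B cell genes, 8 were positive in each genotype (medians +1.66 and +1.73). Of these 1 was called higher in WT and 0 in IL33KO, and 1 was called lower in each. Among 10 macrophage genes 0 were called (medians +0.44 and −0.12). The part of these cells in the member ratios was not tested.

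Ctla4 stood at 204, 124, 267, 207 and 214 counts per 1000 Cd3 counts in sorted WT, against 24.7, 20.6, 32.7, 23.4 and 70.5 in bulk WT. In IL33KO it stood at 172, 290, 239, 194 and 215 in the sort, against 32.2, 41.0, 97.9, 43.9 and 63.1 in bulk. Sorted and bulk libraries did not overlap in either genotype. The ratio rose 5.86-fold in WT (log2 +2.55, SE 0.45, edgeR adjusted p = 3.02e-07) and 4.01-fold in IL33KO (log2 +2.00, SE 0.45, edgeR adjusted p = 3.46e-05). Over all 24 alternatives of each it stayed called, from +2.15 to +3.00 in WT and from +1.55 to +2.30 in IL33KO.

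Il10 stood at 31.3, 20.97, 66.4, 38.4 and 27.2 counts per 1000 Cd3 counts in sorted WT, against 1.12, 4.57, 3.91, 4.43 and 6.70 in bulk WT. In IL33KO it stood at 17.7, 48.4, 42.4, 18.2 and 52.4, against 12.4, 3.22, 28.3, 3.99 and 8.28. In IL33KO the compartments overlapped, since bulk IL33KO 3 lay above sorted IL33KO 1 and 4. Sorted exceeded bulk by log2 +3.12 in WT (SE 0.55, edgeR adjusted p = 3.04e-07) and +1.72 in IL33KO (SE 0.53, edgeR adjusted p = 0.00219). Macrophages and B cells can also make Il10. The 10 macrophage genes summed to 10181 to 12736 CPM in sorted WT and 6023 to 9759 in sorted IL33KO. In bulk they summed to 583 to 1871 CPM in WT and 1190 to 1508 in IL33KO, with none at 0. The 9 B cell genes summed to 247 to 751 CPM in sorted WT and 170 to 1351 in sorted IL33KO. Their bulk sums were 9.75 to 73.5 CPM in WT and 20.3 to 215 in IL33KO. The part of either cell type in this ratio was not tested.

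Ikzf2 went the other way, at 27.5, 35.6, 45.0, 55.9 and 40.9 counts per 1000 Cd3 counts in sorted WT against 431, 423, 160, 418 and 140 in bulk WT. In IL33KO it stood at 44.4 to 57.4 in the sort and at 152 to 423 in bulk. The 3 bulk WT libraries lowest in T cell genes had the highest ratios. The ratio fell 7.66-fold in WT (log2 −2.94, SE 0.44, edgeR adjusted p = 4.05e-09) and 5.33-fold in IL33KO (log2 −2.42, SE 0.44, edgeR adjusted p = 6.30e-07), as did most genes. The other 7 members lay between −0.87 (Tnfrsf9) and +0.75 (Icos) in WT and between −0.74 (Tnfrsf9) and +0.55 (Foxp3) in IL33KO. Tnfrsf9 was close to the threshold in WT (log2 −0.87, SE 0.43, edgeR adjusted p = 0.0518). Without sorted WT 3 it was called lower at −1.22 (edgeR adjusted p = 0.0142). It was also called without bulk WT 3 (−0.94, edgeR adjusted p = 0.0433) or bulk WT 5 (−0.86, edgeR adjusted p = 0.0496). Without any one of sorted IL33KO 3 and 4 and bulk IL33KO 3 and 5 the value stayed at −0.87. The edgeR adjusted p then ran from 0.0381 to 0.0470. Those libraries are in neither group of the WT comparison and enter it only through the shared estimate of spread. In IL33KO Tnfrsf9 was called lower at −1.33 without sorted IL33KO 3 (edgeR adjusted p = 0.00379).

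Between genotypes no member was called per Cd3 count by edgeR, in sorted leukocytes (0.0359% of genes called) or in bulk tumour (0.591% called). The members' log2 differences ran from −0.04 to +0.56 in sorted leukocytes and from −0.20 to +1.35 in bulk tumour. Foxp3 per Cd3 count, the nearest measure here of the share of regulatory cells among T cells, was tested on its own with a two-sided exact permutation test. It stood at 37.5, 42.6, 22.9, 48.1 and 38.8 per 1000 in sorted WT and 66.0, 53.8, 53.4, 37.1 and 28.3 in sorted IL33KO. In bulk it stood at 22.5, 28.6, 43.2, 32.9 and 21.1 in WT and 22.8, 35.1, 62.0, 21.1 and 23.3 in IL33KO. The groups overlapped in each of the 4 comparisons. The exact permutation p was 0.317 between genotypes in sorted leukocytes (ratio 1.24, adjusted over 4 comparisons 0.423) and 0.825 in bulk tumour (ratio 1.05, adjusted 0.825). Between sorted and bulk it was 0.206 in WT (ratio 1.28, exact permutation p adjusted 0.413) and 0.119 in IL33KO (ratio 1.52, exact permutation p adjusted 0.413). The smallest p that 5 against 5 libraries allow is 0.00794. Without bulk IL33KO 3, whose Cd3 sum was the lowest of all, the last comparison gave an unadjusted exact permutation p of 0.0317. With Cd4 as denominator the difference between sorted and bulk was smaller in both genotypes. It was log2 +0.17 in WT (exact permutation p = 0.492), against +0.36 per Cd3 count. In IL33KO it was +0.17 (exact permutation p = 0.556), against +0.60.

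**Figure D3:**
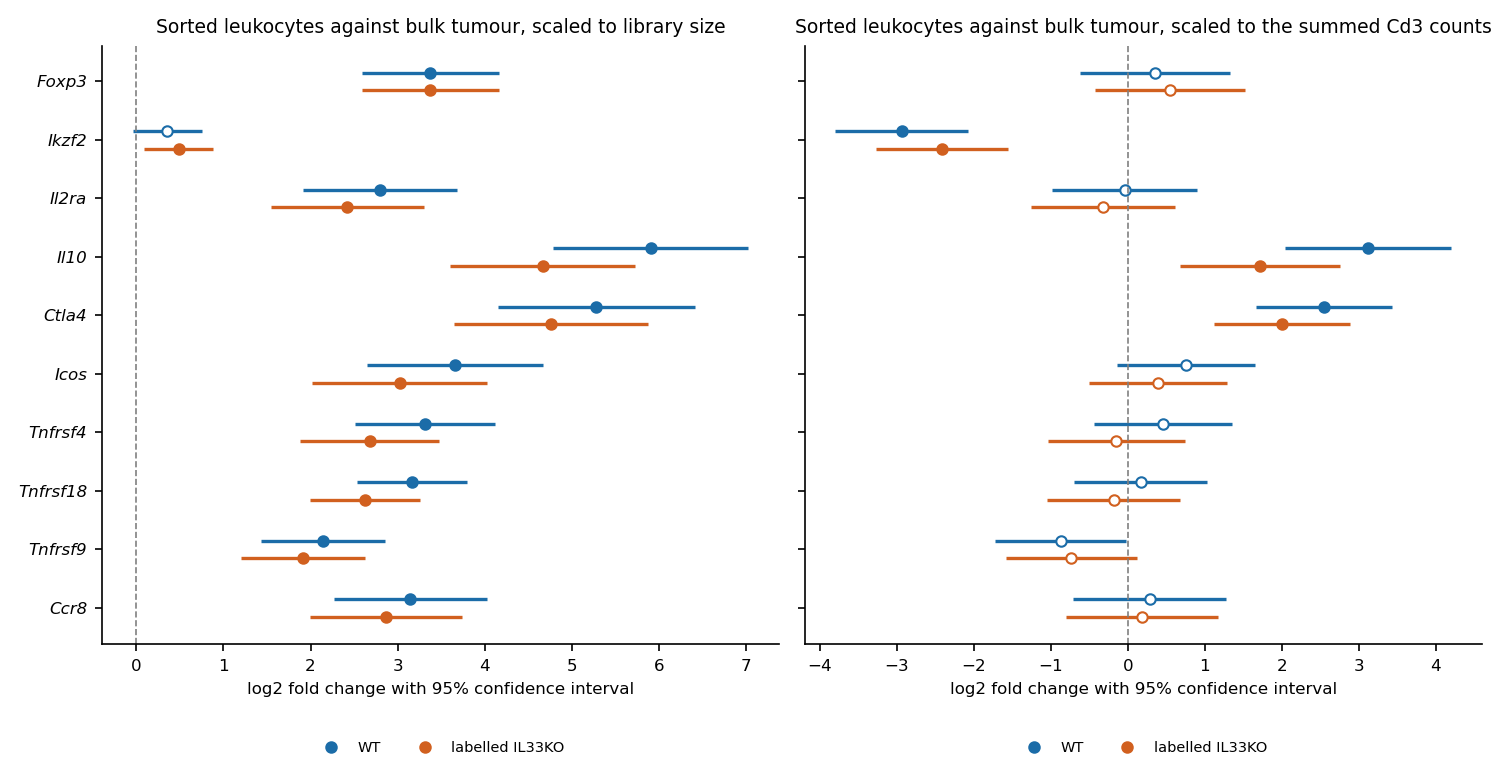
Log2 fold change of sorted leukocytes against bulk tumour for the 10 genes, scaled to library size (left) and to the summed Cd3 counts (right), in WT and in libraries labelled IL33KO; points are edgeR estimates, lines 95% confidence intervals, filled points were called and open points were not. On the right Ctla4 and Il10 stay above 0 in both genotypes, Ikzf2 lies below 0, and the other 7 were not called, the lowest being Tnfrsf9 in WT at −0.87, whose interval ends just below 0.

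**Figure D4:**
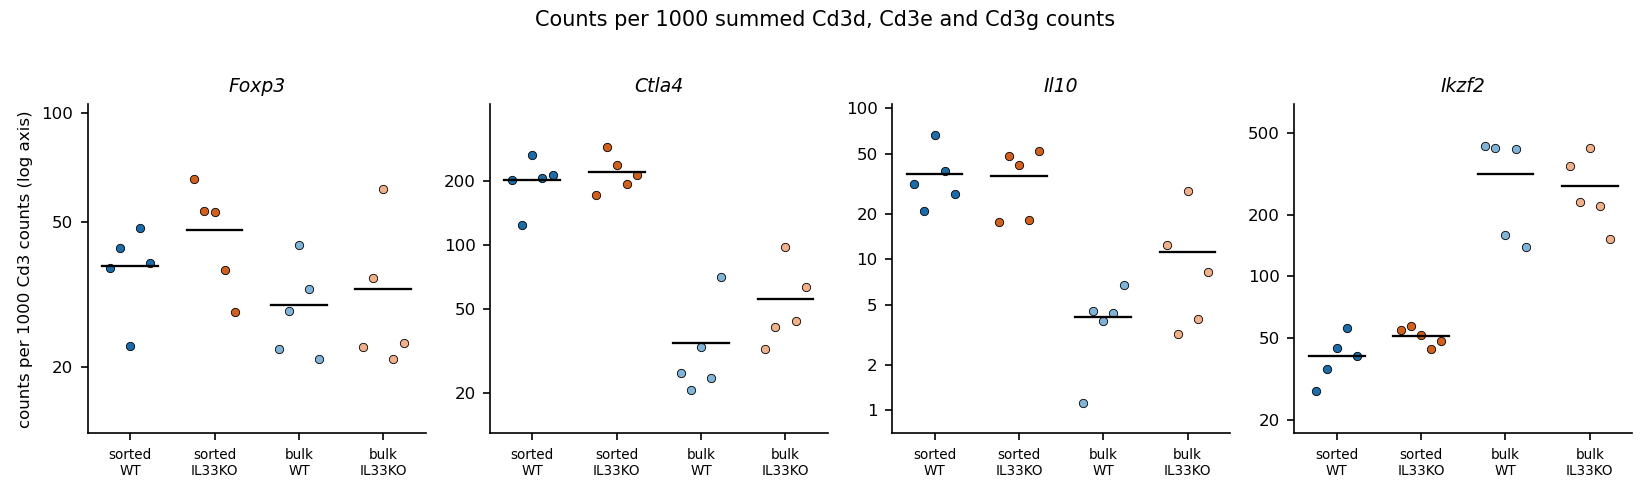
Counts of Foxp3, Ctla4, Il10 and Ikzf2 per 1000 summed Cd3d, Cd3e and Cd3g counts (log axis); points are libraries in replicate order and bars are means of 5. Foxp3 overlaps between all groups, Ctla4 is higher in every sorted library than in any bulk library, and Ikzf2 is lower in every sorted library.

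How the genes varied together was read over the 10 sorted and the 10 bulk libraries separately, in log2 CPM, over 42 relations with permutation p-values adjusted together. Tnfrsf4 and Tnfrsf18 lie 9.55 kb apart on chromosome 4 with no protein-coding gene between them, and Ctla4 and Icos 62.1 kb apart on chromosome 1, also with none between. These 2 pairs were added after the values were seen. Their values are therefore a description, and their permutation p are not given. Both pairs were nevertheless among the 42 relations adjusted together, which can make the other adjusted p smaller. Tnfrsf4 and Tnfrsf18 gave Pearson's r = 0.97 and Spearman's rho = 0.964 in sorted libraries (n = 10), and r = 0.962 without the 2 libraries farthest from the median. In bulk libraries r was 0.895 and rho 0.745, with r = 0.954 without the 2 farthest. Ctla4 and Icos gave r = 0.953 and rho = 0.939 in sorted libraries, and r = 0.957 without the 2 farthest. In bulk libraries r was 0.918 and rho 0.818, with r = 0.883 without the 2 farthest. All 4 genes also followed the T cell content: with the summed Cd3 level, r ran from 0.796 (Ctla4) to 0.905 (Tnfrsf18) in sorted libraries (n = 10, permutation p from 0.00687 to 0.00049, adjusted 0.0206 to 0.00343). For the same relations Spearman's rho ran from 0.806 (Ctla4 and Icos) to 0.915 (Tnfrsf4; permutation p = 0.00064, adjusted 0.00672), and r without the 2 farthest libraries from 0.663 to 0.853. How much of the pairs' likeness this carries was not tested.

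**Figure D5:**
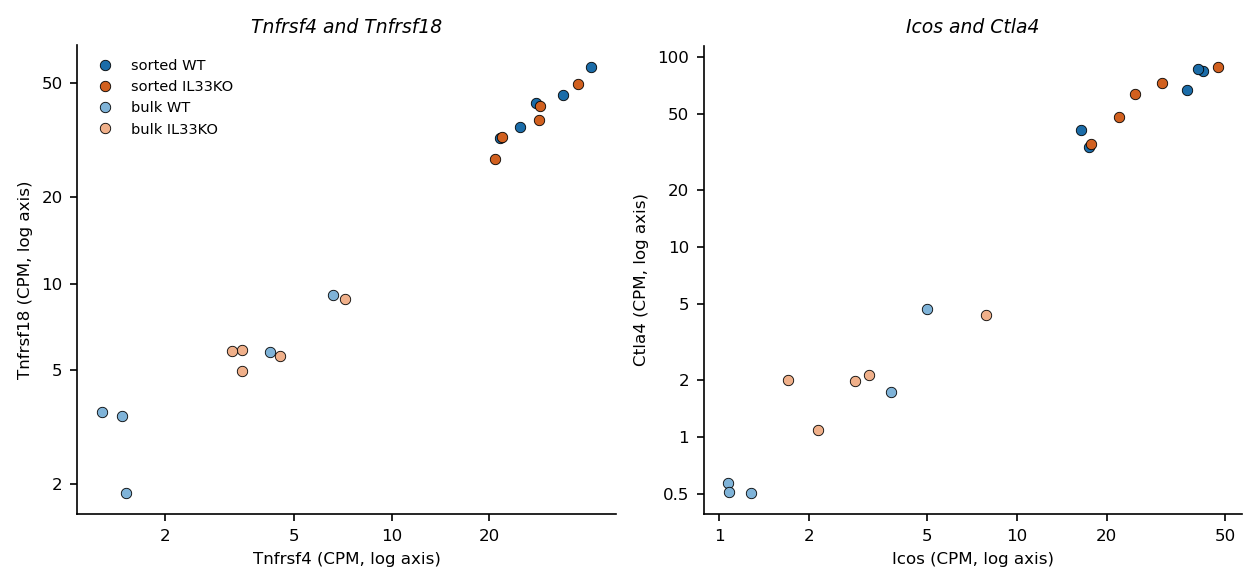
CPM of 2 pairs of neighbouring genes in the 20 libraries, Tnfrsf4 against Tnfrsf18 and Icos against Ctla4 (both axes log); each point is a library and colours are groups. Within the sorted libraries the pairs follow each other (r = 0.97 and 0.953), and sorted and bulk libraries form separate clusters, so no r was taken over all 20.

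Foxp3 followed Tnfrsf4 in sorted libraries (r = 0.757, permutation p = 0.0121, adjusted 0.0269; rho = 0.745, permutation p = 0.0173, adjusted 0.0395), and r was 0.846 without the 2 farthest libraries. Tnfrsf4 also followed the summed Cd3 level, as above, and Foxp3 and Cd3 gave r = 0.629 in sorted libraries (permutation p = 0.0514, adjusted 0.0772; rho = 0.697, permutation p = 0.0304, adjusted 0.0596; r = 0.461 without the 2 farthest). In bulk libraries Foxp3 and Cd3 gave r = 0.713 (permutation p = 0.0256, adjusted 0.0413; rho = 0.636, permutation p = 0.0553, adjusted 0.0860; r = 0.851 without the 2 farthest). The part of T cell content in the relation of Foxp3 and Tnfrsf4 was not tested. With Tnfrsf9, Foxp3 gave r = −0.34 in sorted libraries (permutation p = 0.327, adjusted 0.396; rho = −0.248, permutation p = 0.489, adjusted 0.555), and r = 0.249 without the 2 farthest, so that the negative value rested on those libraries. In bulk libraries Foxp3 and Tnfrsf9 gave r = 0.813 (permutation p = 0.0054, adjusted 0.0206; rho = 0.842, permutation p = 0.00378, adjusted 0.0265) and r = 0.883 without the 2 farthest. This pair was not particular: bulk r with Foxp3 was also 0.748 for Il2ra, 0.766 for Ctla4, 0.780 for Icos, 0.781 for Tnfrsf4, 0.699 for Tnfrsf18 and 0.733 for Ccr8. For those r the adjusted permutation p ran from 0.0240 to 0.0390. By rho it was 0.0857 for Ctla4 and 0.0575 for Tnfrsf4. Tnfrsf9 and Cd3 gave r = 0.832 in bulk libraries. The part of T cell content in these bulk relations was not tested. Foxp3 and Ikzf2, the 2 transcription factors, gave r = 0.580 in sorted libraries (permutation p = 0.0791, adjusted 0.115) and r = 0.647 without the 2 farthest. Spearman's rho there was 0.648 (permutation p = 0.0483, adjusted 0.0821). In bulk tumour the 2 genes showed no detectable relation, at r = −0.298 (permutation p = 0.399, adjusted 0.453) and r = −0.0543 without the 2 farthest. The bulk rho was −0.115 (permutation p = 0.76, adjusted 0.76). After removing the 4 group means, the genes most like Foxp3 over 20 libraries, among 12868 genes, were the ribosomal protein gene Rps3 (r = 0.850), the CCR4 ligand gene Ccl22 (0.845), Ggct (0.837), the prefoldin subunit gene Pfdn5 (0.832) and the kinase gene Pim2 (0.830). Among the other members the same measure ranged from 0.216 for Ikzf2 to 0.754 for Tnfrsf4. These values describe the libraries, which share depth and composition across genes, and carry no p.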

How the data were processed

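RNA was measured by stranded poly(A) sequencing in 20 libraries, 5 in each of 4 groups taken from the sample labels. The authors deposited raw counts per gene; per the submitters' processing notes, Picard, HTSeq, DESeq and the mm10 genome were used, and no source used here gives the aligner, versions or strand setting. A table of scaled values was also deposited, per the file headers counts divided by DESeq size factors, a signal used only as an alternative. The 5 summary lines of the count table, 26.1 to 40.5% of reads, were left out.

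Counts were tested with edgeR 4.0.16 in R 4.3.3: a filter on low counts (filterByExpr), TMM scaling, the robust quasi-likelihood test, two-sided, Benjamini-Hochberg adjustment over all genes tested, threshold 0.05. Genotypes were compared within a compartment on its 10 libraries; sorted against bulk and the interaction used all 20. CPM were taken on library sizes after TMM; for log2 CPM the prior count was 2. The fit per Cd3 count used the summed Cd3d, Cd3e and Cd3g counts as library size, without TMM, and left those genes out. Foxp3 per Cd3 count was compared by exact permutation, and relations by 100000 permutations. Limma 3.58.1 and DESeq2 1.42.0 served as alternatives, with other scaling, filters, Cd4 as denominator, a replicate block and each library left out; 1 planned denominator is not reported here. The scripts were tested on simulated counts. A 2-fold change was recovered for 65.7% of changed genes between genotypes in sorted leukocytes and for 58.2% in bulk tumour. Between compartments in WT the share was 67.2%, and 11.9% per Cd3 count. For a 1.5-fold change the 4 shares were 20.9%, 14.9%, 19.4% and 0%, so differences of these sizes can go uncalled. Genes averaging below 1 CPM were not among those changed, and the shares were not split by level. The shares therefore do not show how often a change would be found in genes as low as Il10 in bulk tumour. Il10 averaged 0.178 CPM in bulk WT and 0.384 CPM in bulk IL33KO. Exon lengths and positions came from GENCODE M21 (GRCm38), which matched 46488 of 46983 genes.

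Named genes were all 10 members, from the 2 further lists those with the smallest edgeR p, at most 4 per comparison, and the 5 genes most like Foxp3 with a mean of at least 1 CPM. The members and lists were chosen with earlier results of these data known. Replicate numbers were not taken as pairing the libraries: deviations of same-numbered sorted and bulk libraries correlated at −0.26 to 0.30, over 0.1 in 2 of 10 pairs, and those of same-numbered WT and IL33KO libraries at −0.12 to 0.59 in bulk (over 0.1 in 4 of 5) and −0.19 to 0.34 in sorted libraries (3 of 5), where every pair over 0.1 was required. No 2 replicates agreed within sampling noise (lowest chi-square per gene 18.3). Of the other marker lists only those beside a result are given.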

Additional observations from a re-analysis of the deposited data

Results flagged for a closer look

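Among the 40 sets of 5 libraries checked, 1 for each gene in each group, 3 held a library far from the others by Dixon's criterion, where chance gives about 1 in 20. Ikzf2 stood at 16.5 CPM in sorted WT 5, against 9.64 to 11.4 CPM in the other sorted WT libraries. Icos stood at 7.86 CPM in bulk IL33KO 5, against 1.70 to 3.19 CPM in the others of its group. Tnfrsf18 stood at 8.83 CPM in the same bulk IL33KO 5 library, against 4.98 to 5.86 CPM in the others.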

How the results depend on the processing

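Between sorted leukocytes and bulk tumour, 9 genes other than Ikzf2 kept their call in 28 of 28 alternatives in both genotypes, and per Cd3 count Ctla4, Il10 and Ikzf2 kept theirs in 24 of 24. The Ikzf2 call in IL33KO was lost without a filter (edgeR adjusted p = 0.0582), with the replicate block (0.0510) and on the deposited scaled values (limma adjusted p = 0.0718). The cause was not tested for these or the changes that follow. Leaving out sorted WT 3 and sorted IL33KO 3 together was chosen after seeing the data.

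For genotype in sorted leukocytes, 2 genes were called; DESeq2 called 476, limma voom 400, the fit without the 2 libraries with few unaligned reads 1, the replicate block 1 and the pan-leukocyte covariate 27. Signs turned with voom for Il10 (0.22), Ctla4 (0.38), Icos (0.30) and Tnfrsf9 (0.12). Without the 2 libraries with few unaligned reads they turned for Foxp3 (−0.017), Il10 (0.040), Ctla4 (0.0056) and Tnfrsf9 (0.12), and without sorted WT 3 and IL33KO 3 for Il10 (0.16), Ctla4 (0.15) and Icos (0.091). Ctla4 was 0.016 with the replicate block and 0.0077 on scaled values; with the covariate Ctla4 was 0.13, Icos 0.19 and Tnfrsf9 0.30. In bulk tumour 0 genes were called, against 52 with DESeq2 and 3371 with voom, which called 8 members; with the covariate Foxp3 was −0.044, Icos −0.022 and Tnfrsf9 −0.077. For the interaction 0 genes were called, against 1 with DESeq2 size factors, 2 with DESeq2, 3406 with voom, which called 2 members, and 1 without sorted WT 3 and IL33KO 3.

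Per Cd3 count in WT, 3 members were called, against 5 with the replicate block. With Cd4 as denominator Tnfrsf18 was −0.075 and Ccr8 −0.025 in WT, and Icos −0.10 and Ccr8 −0.28 in IL33KO; Ccr8 was −0.0066 without sorted WT 3 and IL33KO 3.

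Leaving out 1 library gave 1 to 3 called genes in sorted leukocytes, 0 to 19 in bulk tumour and 0 to 27 for the interaction, the highest of the last pair without bulk WT 5. Ranges that crossed 0 in sorted leukocytes were Foxp3 −0.017 to 0.30, Il10 −0.50 to 0.040, Ctla4 −0.17 to 0.14, Icos −0.36 to 0.047, Tnfrsf4 −0.25 to 0.034, Tnfrsf9 −0.25 to 0.12 and Ccr8 −0.020 to 0.20. In bulk they were Foxp3 −0.027 to 0.58, Icos −0.010 to 0.96 and Tnfrsf9 −0.0079 to 0.48. Foxp3 per Cd3 count ran from −0.20 to 0.21 between bulk genotypes and 0.47 to 0.86 between compartments in IL33KO. Per Cd3 count Il2ra ran from −0.23 to 0.18 in WT, and in IL33KO Ccr8 from −0.0066 to 0.35, Il2ra −0.75 to 0.13, Tnfrsf4 −0.30 to 0.24 and Tnfrsf18 −0.31 to 0.11.

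With the replicate block 9 members were called between compartments in each genotype, 5 in WT and 4 in IL33KO per Cd3 count, and 0 between genotypes. Pairing Foxp3 per Cd3 count by number gave exact sign-flip p of 0.5, 0.688, 0.375 and 0.125. Depth limits Il10 most, at 2 to 42 counts in bulk libraries.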
